A study of Mus musculus with 21 samples.

Results

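CpG-rich windows are 100 kb pieces of the mouse autosomes in which a bisulfite library of sperm nucleosomal DNA lists 1200 or more CpGs. Fixed windows were laid along each autosome (positions 1 to 100000 and so on, mm9 build), and the 1650 windows chosen by their number of listed CpGs are part of 23941 with any. They cover 165 Mb, 6.89% of the windows, and hold 2285042 listed CpGs, 15.1% of the autosomal total. They are set here against the 3966 windows with 500 to 700 listed CpGs, which hold 2372658 CpGs, nearly as many, in 396.6 Mb. A CpG is listed only if at least 1 read covers it, so the number that chose the windows depends both on how many CpGs the sequence has and on how well they were covered. Neither the number of CpGs nor anything that follows from it alone is a finding.

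The series holds 21 chromatin, RNA and bisulfite samples of mouse sperm and round spermatids. The values here come from 1 of them, bisulfite-converted nucleosome-associated DNA of C57BL/6 sperm that carry no named mutation or treatment. Per the labels' protocols motile sperm were enriched in a swim-up step and mononucleosomes were released with micrococcal nuclease, an enzyme that cuts the DNA between nucleosomes; how many mice contributed is not given in the sources used here. Only 1 such library was analysed, with no biological replicate, so no p-value is given, and the spreads below are those over the 19 autosomes or over windows of this library. The labelled cell type was not checked here against regions whose methylation is particular to sperm. Reads are pooled over all sperm, so a nucleosome kept in more cells and one recovered more fully from each cell cannot be told apart.

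In mammals most CpGs carry a methyl group on the cytosine, and the genome has lost many of its CpGs over time through the mutation of methylated cytosine. CpG islands, short CpG-dense stretches that often hold promoters, stay unmethylated in the germ line and keep their CpGs. During sperm maturation most histones are exchanged for protamines, and the DNA that remains in nucleosomes is known to be rich in unmethylated CpG-dense sequence. Windows with many CpGs can therefore differ from others through their islands, through the methylated sequence between them, or through both. The library allows the parts to be measured apart.

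The windows reached the limit by different amounts. The number of listed CpGs per window was 1200 at the lowest, 1336 at the median and 2599 at the highest, with quartiles of 1258 and 1467. The windows with 500 to 700 CpGs had a median of 598. Depth of listing differed between the sets: 19.4% of the listed CpGs had a single read in the CpG-rich windows, against 24.6% in the windows with 500 to 700. A negative binomial distribution truncated at 0 put the CpGs without reads at 11.1% and 15.3% in these 2 sets, an estimate that rests on the fitted shape. Levels lay close together on both sides of the limit: the 156 windows with 1200 to 1219 listed CpGs had a pooled level of 67.0% and the 180 windows with 1180 to 1199 had 67.4%. Of the first 5 inside, all with 1200 listed CpGs, levels ran from 49.2% on chromosome 3 (96400001 to 96500000) to 88.9% on chromosome 16 (28800001 to 28900000); of the first 5 outside, all with 1199, they ran from 64.2% on chromosome 6 (72100001 to 72200000) to 73.1% on chromosome 11 (98500001 to 98600000).

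CpG-rich windows were less methylated as a whole. The methylation level, here methylated reads over all reads of the CpGs with up to 19 reads, was 61.7% in them (95% Wilson interval 61.70 to 61.77) and 78.8% in the windows with 500 to 700 CpGs (78.73 to 78.78). The intervals cover counting error only and are too narrow, since 1 read counts at each CpG it covers. Over autosomes the level was 61.2% ± 2.80 in CpG-rich windows and 78.8% ± 1.06 in the others (SD, 19 autosomes), and it was lower in the CpG-rich windows of all 19 autosomes, by 12.2 points on chromosome 12 at the least and 23.7 points on chromosome 7 at the most. The difference of 17.0 percentage points was thus larger than the spread between autosomes. It also followed the number of CpGs across the whole range. Windows with 300 to 499 listed CpGs had a level of 83.3%, those with 900 to 1199 had 70.5%, those with 1200 to 1499 had 63.9%, those with 1500 to 1799 had 56.5% and the 43 windows with 1800 or more had 46.3%.

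**Figure D1:**
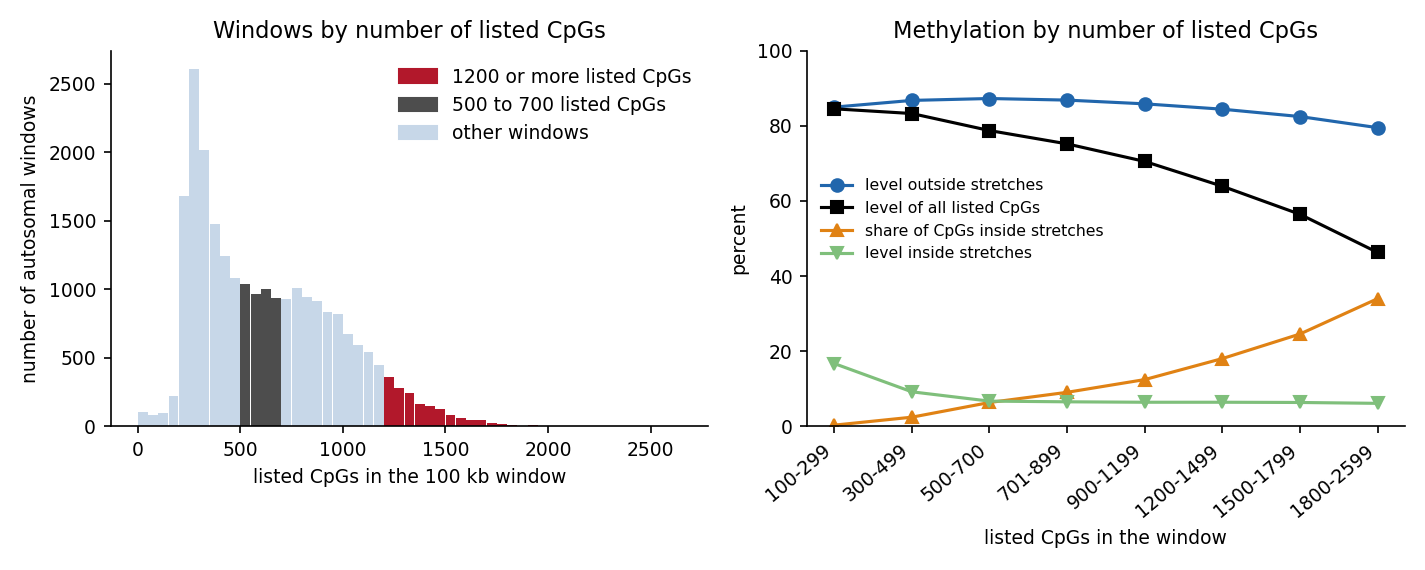
Left, number of autosomal 100 kb windows (y axis) by number of listed CpGs (x axis, bars of 50 CpGs), with the 1650 windows of 1200 or more in red. Right, by number of listed CpGs in the window (x axis, windows under 100 CpGs not shown), the percentage of methylated reads over all listed CpGs (black), outside low-methylated stretches (blue) and inside them (green), and the percentage of listed CpGs that lie inside such stretches (orange); the black line falls to 46.3% as the orange one climbs to 34.0%, while the level inside lies between 6.12% and 6.72% from 500 CpGs on and at 16.7% in the windows of fewest CpGs.

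Single windows spread widely around this level. The lowest of the 1650 CpG-rich windows had a level of 9.44%, the median 63.1% and the highest 94.95%, with quartiles of 53.1% and 73.3%. Among the windows with 500 to 700 CpGs the lowest was 24.7%, the median 84.3% and the highest 96.5%, with quartiles of 73.4% and 88.3%. The 2 distributions overlapped over most of their range but differed in shape. Levels in the CpG-rich windows formed 1 broad hump, whereas the other set had a narrow peak between 85% and 90% with a long tail below it. A level under 50% was found in 300 of the 1650 CpG-rich windows (18.2%), against 3.73% of all windows of 100 or more CpGs and 3.15% of those with 500 to 700. A level over 80% was found in 235 of them (14.2%), against 61.9% of all windows and 64.3% of those with 500 to 700.

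The windows were next divided into low-methylated stretches and the rest. A stretch is a run of 4 or more CpGs with at least 5 reads each, a running level over 3 CpGs under 50%, and no gap over 500 bp; a large stretch has 30 or more such CpGs. CpG-rich windows held 8037 stretches, 4.87 per window, and the windows with 500 to 700 CpGs held 3439, 0.867 per window. Of the large ones the CpG-rich windows had 2791, or 1.69 per window, against 1003, or 0.253 per window. So 6.89% of the windows, with 15.1% of the listed CpGs, carried 30.1% of the 9286 large autosomal stretches and 26.4% of the 19861 smaller ones. At least 1 large stretch was present in 1332 of the 1650 CpG-rich windows (80.7%), against 27% of all windows and 23.4% of those with 500 to 700 CpGs. A stretch adds its CpGs to the number that chose the windows, so part of this excess of stretches comes with the choice.

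Large stretches were close in length and CpG density in the 2 sets, and smaller ones differed more. Large stretches had a median length of 1548 bp in CpG-rich windows and 1468 bp in windows with 500 to 700 CpGs, with 6.52 and 6.60 listed CpGs per 100 bp at the median. Their median level, from the CpGs with 5 or more reads, was 3.13% (quartiles 1.98% and 5.09%) and 2.44% (quartiles 1.59% and 3.78%). Smaller stretches had median levels of 14.8% and 20.8%, median lengths of 513 and 453 bp, and 4.39 and 3.66 listed CpGs per 100 bp. Over all stretches the median length was 812 bp in CpG-rich windows and 652 bp in the others. All stretches together took up 4.28 kb of a CpG-rich window at the median and at most 45.6 kb, against 0.265 kb at the median of the windows with 500 to 700.

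Stretches held 19.9% of the listed CpGs of CpG-rich windows (Wilson interval 19.88 to 19.99) and 28.6% of their reads, against 6.35% of the CpGs (6.32 to 6.38) and 10.6% of the reads in windows with 500 to 700. Inside stretches the pooled level was 6.39% and 6.72% in the 2 sets, and outside it was 83.9% and 87.3%. Across autosomes the level outside was 84.0% ± 0.97 in CpG-rich windows and 87.3% ± 0.36 in the others (SD, 19 autosomes), lower in CpG-rich windows on all 19. The size of this gap depended on how stretches were called. With stretches from all listed CpGs the pooled levels outside were 87.8% and 88.8%. With stretches from CpGs of 3 or more reads they were 87.0% and 88.4%, and of 10 or more reads 68.7% and 81.9%. Most of a CpG-rich window was therefore methylated DNA: 80.1% of its listed CpGs lay outside stretches. In bins of 500 bp with at least 10 reads the same division appeared. Of 232029 such bins in CpG-rich windows 8.09% were under 20% methylated, 24.0% between 20% and 80%, and 67.9% above, against 2.50%, 20.5% and 77.0% of the 275465 bins of the other set. The limit of 10 reads kept 72.8% of the bins with reads in CpG-rich windows and 41.2% in the other set. The bins compared were therefore not chosen alike.

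Windows ordered by their large stretches showed the same relation step by step. The 318 CpG-rich windows with none had a median level of 83.0%, the 547 with 1 had 67.5%, the 395 with 2 had 58.9%, the 215 with 3 had 51.8% and the 175 with 4 or more had 44.1%. The level outside stretches fell less over the same steps, being 86.6% with no large stretch and 79.0% with 4 or more. Across the 1650 windows the level and the share of CpGs inside stretches had a Spearman correlation of -0.969, a description only, since both are read from the same CpGs. The correlation of the level with the number of listed CpGs was -0.265. Stretches are called by their low level and the windows were chosen by their number of CpGs, so the 2 correlations are not compared.

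**Figure D2:**
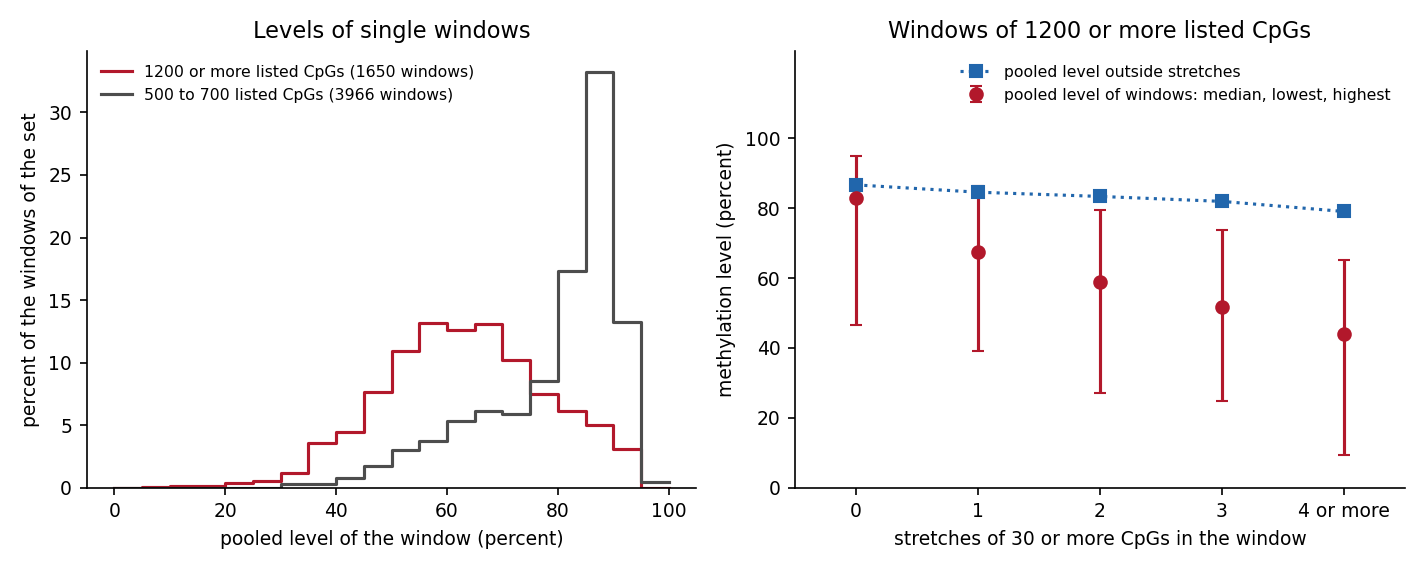
Left, percentage of the windows of each set (y axis) by pooled level of the window (x axis, steps of 5%), with a broad hump around the median of 63.1% for the 1650 CpG-rich windows (red) and a peak between 85% and 90% for the 3966 windows with 500 to 700 CpGs (grey). Right, for CpG-rich windows by number of large stretches (x axis), the median level of the windows (red points; bars run from the lowest to the highest window) and the pooled level outside stretches (blue squares).

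The extremes of the set were 2 different kinds of window. The 5 with the lowest levels lay on chromosome 2 (74500001 to 74600000, 9.44%, Wilson interval 8.94 to 9.97), chromosome 9 (91200001 to 91300000, 13.9%, 13.0 to 14.9), chromosome 15 (102800001 to 102900000, 14%, 13.2 to 14.9), chromosome 6 (52100001 to 52200000, 15.5%, 14.9 to 16.2) and again chromosome 15 (102700001 to 102800000, 18.2%, 17.3 to 19.2). Each held 10 to 27 stretches, which together took up 19.2 to 45.6 kb. The windows on chromosomes 2, 9, 15 (the more distal one) and 6 were also among the 5 with the largest share of CpGs in stretches, at 81.9%, 65.8%, 69.8% and 69.3%, and were joined there by a window on chromosome 14 (122800001 to 122900000) with 66.3% and a level of 20.1%. As background from general knowledge of the mm9 genome, the windows on chromosomes 2, 15 and 6 are where the HoxD, HoxC and HoxA clusters lie, groups of homeobox genes that pattern the embryo; no mm9 annotation was used, and RefSeq on the later GRCm38.p6 build was read only for the chromosomes of these clusters, which are the same.

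The windows were picked for a low pooled level, which counts the CpGs between stretches too, so a low level there comes partly with the choice. Outside stretches the level was 40.4% in the window on chromosome 2, 47.3% on chromosome 9, 49.7% and 46.8% in the 2 on chromosome 15, and 43.7% on chromosome 6, against a median of 84.1% over all CpG-rich windows and 5th and 95th percentiles of 74.4% and 90.9%. The window on chromosome 14, picked for its share in stretches and not among the 5 lowest levels, had 76.2% outside. Reads per listed CpG outside stretches were between 2.50 and 2.83 in the 5 lowest windows, where the median window had 3.18. Inside, they were 5.29 to 5.50, against a median of 5.07.

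At the other end stood CpG-rich windows without a single stretch. There were 79 of them (4.79%), against 44.2% of the windows with 500 to 700 CpGs; 1571 of the 1650 CpG-rich windows (95.2%) had a stretch, against 48.6% of all windows. They were found on 17 of the 19 autosomes, with 10 on chromosome 8 and 9 on chromosome 17 at the most. Their levels ran from 79.4% to 94.95%, with a median of 89.99%, and their pooled level was 89.7%, against 88.6% in the 1753 windows with 500 to 700 CpGs and no stretch. So a window can hold 1200 or more listed CpGs, a level of at least 79.4% and no called stretch. Short or thinly read low-methylated runs would be missed, since 27.8% of the CpGs of CpG-rich windows have 5 or more reads. The level did not fall with local CpG number in them: it was 88.8% where the 100 bp to either side held 1 or 2 listed CpGs (the CpG itself included), 89.6% at 3 to 5, 90.3% at 6 to 9 and 89.7% at 10 to 14. In the 1753 windows with 500 to 700 CpGs and no stretch it was 88.9%, 89.0%, 85.6% and 78.6% in the same classes. Having no stretch chose both groups of windows, so high levels at dense CpGs come partly with the choice. The difference between the groups at dense CpGs was not tested.

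The 5 highest levels all belonged to windows without a stretch. They were 94.95% on chromosome 8 (94100001 to 94200000, Wilson interval 94.2 to 95.6), 94.7% on chromosome 5 (116300001 to 116400000, 94.1 to 95.2), 94.1% on chromosome 3 (27300001 to 27400000, 93.4 to 94.8), 93.9% on chromosome 17 (12400001 to 12500000, 93.2 to 94.6) and 93.8% on chromosome 8 (117000001 to 117100000, 93.0 to 94.5). The window on chromosome 5 was among the CpG-richest of the genome as well, with 1821 listed CpGs at 3.13 reads each. Reads per listed CpG in the other 4 were 2.98, 3.17, 3.54 and 3.25.

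Windows with the most CpGs had very different levels. The 5 windows with the most listed CpGs had 2599 on chromosome 6 (52100001 to 52200000), 2496 on chromosome 2 (74500001 to 74600000), 2231 on chromosome 10 (80700001 to 80800000), 2160 on chromosome 8 (123600001 to 123700000) and 2115 on chromosome 10 (80800001 to 80900000). Their levels were 15.5%, 9.44%, 59.3%, 32.6% and 44.2% in the same order. The first pair of windows had 69.3% and 81.9% of their CpGs in stretches. The window with 2231 CpGs had 27.3% there and 1622 CpGs outside, which were 83.1% methylated.

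Levels were then compared at the same local CpG number, the count of listed CpGs up to 100 bp away to either side. CpG-rich windows have many more CpGs in dense surroundings: 11.8% of their CpGs had a local number of 15 or more and 20.3% had 1 or 2, against 3.66% and 47.8% in the windows with 500 to 700. In CpG-rich windows the level was 84.6% at 1 or 2 local CpGs, 81.5% at 3 to 5, 68.6% at 6 to 9, 32.2% at 10 to 14 and 4.09% at 15 or more. In the windows with 500 to 700 it was 88.2%, 86.0%, 68.9%, 22.9% and 2.72% in the same classes. Levels fell with local CpG number in both sets, but they fell over a wider range of numbers in the CpG-rich windows.

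The 2 curves crossed. At 1 or 2 local CpGs the level was 3.63 points lower in CpG-rich windows and at 3 to 5 it was 4.51 points lower, in each case on all 19 autosomes (SD over autosomes 0.80 and 1.30). At 6 to 9 the difference was -0.28 points and its spread over autosomes 3.75, larger than the difference. At 10 to 14 the level was 9.32 points higher in CpG-rich windows, on all 19 autosomes (SD 5.33), and at 15 or more it was 1.38 points higher, on 17 of 19 (SD 1.25). Sparse CpGs were thus less methylated and dense CpGs more methylated in CpG-rich windows than elsewhere at like local number.

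**Figure D3:**
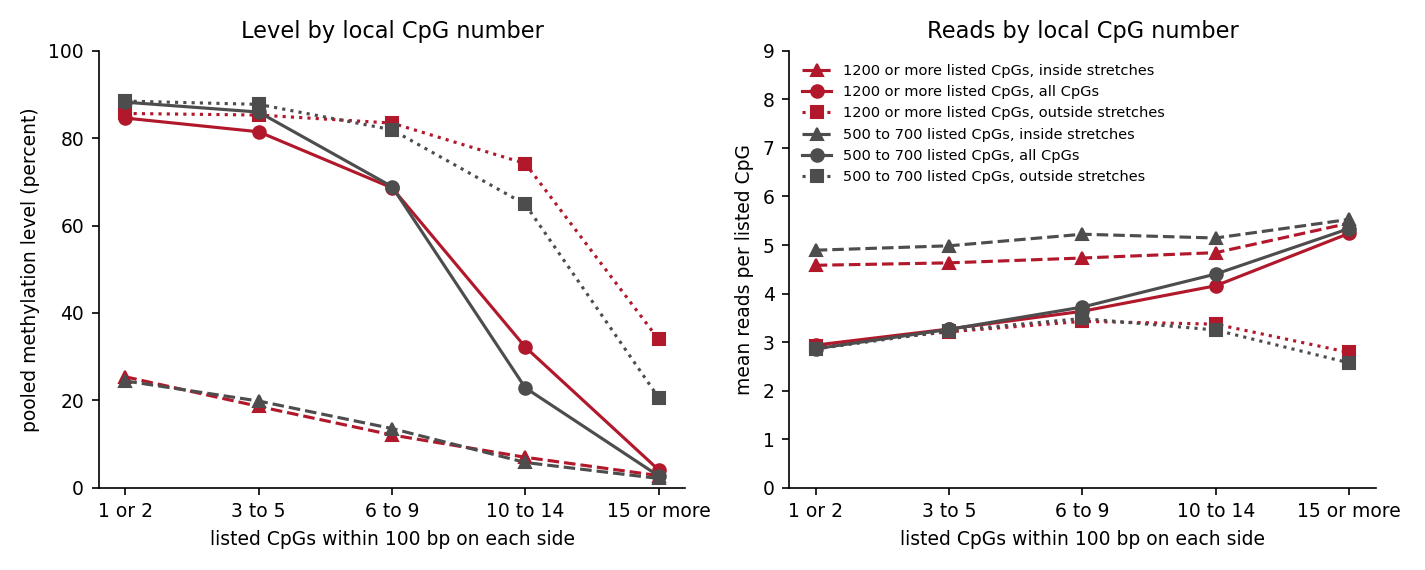
Pooled methylation level in percent (left) and mean reads per listed CpG (right) by local CpG number, over 100 bp to either side (x axes), for the CpG-rich windows (red) and the windows with 500 to 700 listed CpGs (grey), over all CpGs (solid), inside stretches (dashed) and outside them (dotted). The solid level curves cross between 3 to 5 and 10 to 14 local CpGs, with 32.2% and 22.9% at 10 to 14; reads inside stretches lie above those outside in every class.

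Most of the difference in level between the sets moved with local CpG number. When the levels of the windows with 500 to 700 CpGs were weighted by the reads that CpG-rich windows have in each of the 5 classes, their level was 63.0% in place of 78.8%, and the remaining difference was -1.28 points, 7.52% of the 17.0. With each local CpG number up to 40 taken singly it was -0.69 points. Over autosomes it was -1.58 ± 1.56 points (SD, 19 autosomes) and negative on 16 of 19. Its sign was not stable, being 2.46 points with local CpGs counted over 250 bp on each side and 1.20 points with no upper limit on reads. The remainder sums differences of opposite sign, negative at sparse and positive at dense CpGs.

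Outside stretches the crossing remained. At 10 to 14 local CpGs the level was 74.2% in CpG-rich windows (77290 CpGs) and 64.8% in windows with 500 to 700 (16399 CpGs), higher on all 19 autosomes. At 6 to 9 it was 83.4% against 81.9%, higher on 17 of 19. At 1 or 2 it was 85.7% against 88.5% and at 3 to 5 85.3% against 87.7%, lower on all 19 in both classes. With stretches called from all listed CpGs and not only from those with 5 or more reads, a setting chosen after seeing the data, the levels at 10 to 14 were 87.2% and 80.8%. The difference at 10 to 14 thus had the same sign under both calls.

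Much of the DNA of a CpG-rich window lay near a stretch. The median distance from a listed CpG outside stretches to the nearest stretch was 8645 bp in CpG-rich windows and 44361 bp in windows with 500 to 700. The level was higher with distance in both sets, up to 50000 bp and beyond in CpG-rich windows and with little further change past 2000 bp in the others. Within 199 bp it was 34.1% and 35.8%, at 500 to 999 bp 72.6% and 70.7%, at 1000 to 1999 bp 84.0% and 85.1%, at 2000 to 4999 bp 85.9% and 87.7%, and from 50000 bp on 89.6% and 88.6%. Within 1999 bp the level was higher in CpG-rich windows on 14 of 19 autosomes, by 1.53 ± 2.12 points (SD over autosomes). From 2000 to 19999 bp it was lower in CpG-rich windows on 17 of 19 autosomes, by 0.90 ± 0.67 points, and from 20000 bp on it was higher on 15 of 19, by 0.71 ± 0.95 points. The level climbs steeply within 1999 bp, so the value of that band also reflects how its CpGs are spread over distance. In these bands and at the single distances above, the differences were smaller and of either sign. All CpGs outside stretches together differed by -3.35 points, with stretches called from CpGs of 5 or more reads.

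**Figure D4:**
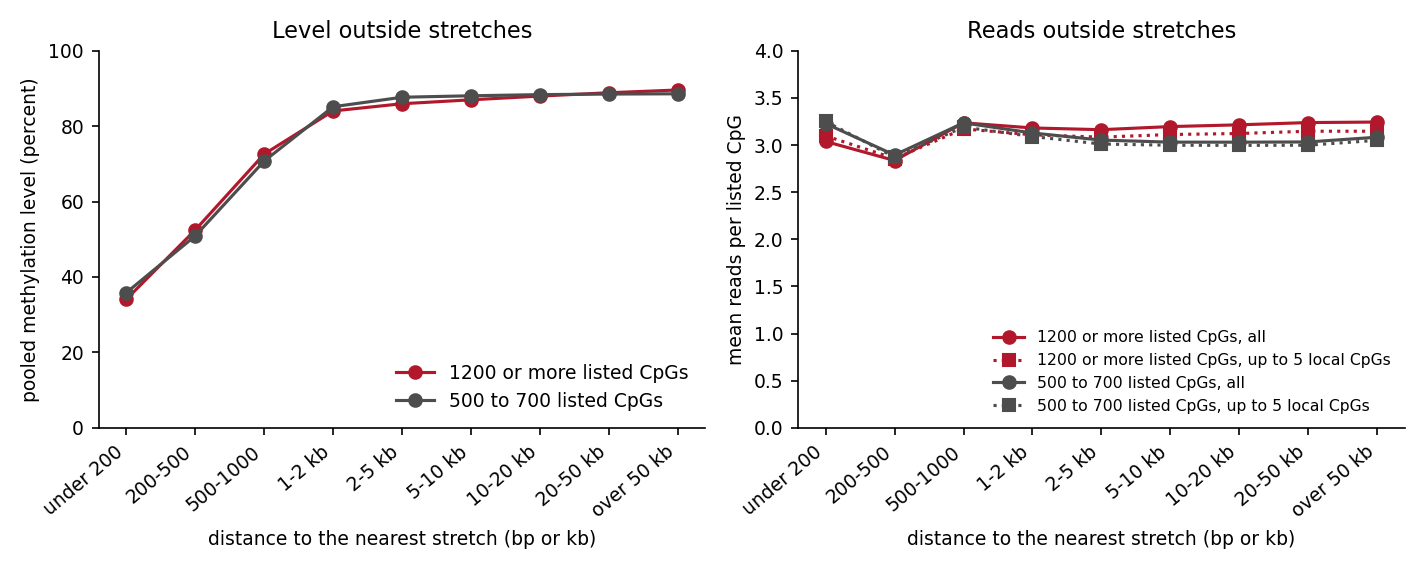
For CpGs outside stretches, the pooled methylation level in percent (left) and the mean reads per listed CpG (right) by distance to the nearest low-methylated stretch (x axes), in CpG-rich windows (red) and windows with 500 to 700 listed CpGs (grey); dotted lines on the right hold only CpGs with up to 5 local CpGs. Levels climb to 84.0% and 85.1% by 1000 to 1999 bp in the 2 sets, and reads from 2000 bp on lie slightly higher in CpG-rich windows.

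The second measurement of the library is coverage, the reads at a listed CpG. The sonicated genomic DNA of the series was not set beside it. Recovery of nucleosomal DNA and other sources of uneven coverage therefore cannot be told apart. In CpG-rich windows the mean was 5.13 reads per listed CpG inside stretches and 3.19 outside, a ratio of 1.61. In windows with 500 to 700 CpGs it was 5.34 inside and 3.06 outside, a ratio of 1.75. Over autosomes the ratios were 1.62 ± 0.04 and 1.75 ± 0.04 (SD, 19 autosomes), lower in CpG-rich windows on all 19. Stretches are called from CpGs with 5 or more reads, so part of each ratio comes with the call. With stretches called from all listed CpGs the ratios were 1.41 and 1.5025.

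Nearly every window showed the same direction. Among the 1539 CpG-rich windows with at least 20 listed CpGs both inside and outside, reads were higher inside in 1532 (99.5%), against 99.5% of all 9595 such windows, so this is no trait of the CpG-rich ones. The ratio was 0.888 at the lowest, 1.59 at the median and 4.196 at the highest. A ratio above 1.5 was found in 1033 of them (67.1%), against 73.3% of all such windows and 75.6% of those with 500 to 700 CpGs. These counts hold for stretches called from CpGs with 5 or more reads, a call that itself favours higher reads inside. They were not made under the other calls.

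The lower ratio of CpG-rich windows had 2 parts. Inside stretches their mean was 0.961 of that in the windows with 500 to 700, lower on 18 of 19 autosomes, and outside it was 1.04 times as high, on all 19. The inside part depended on the calling: with stretches from all listed CpGs the means were 4.57 and 4.62, a ratio of 0.990, lower on 11 of 19 autosomes. The outside part was 1.05 under that call and again higher on all 19. Inside, the gap was widest at 6 to 9 local CpGs, with 4.73 and 5.22 reads, and narrow at 15 or more, with 5.45 and 5.53.

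Outside stretches, local CpG number went with the difference in reads. The local number counts only listed CpGs, which need a read, so it depends partly on coverage itself. Part of this relation, and of the weighting below, is therefore built in. At 1 or 2 local CpGs CpG-rich windows had 2.92 reads per listed CpG and windows with 500 to 700 had 2.86, at 3 to 5 3.21 and 3.23, at 6 to 9 3.43 and 3.49, at 10 to 14 3.37 and 3.25, and at 15 or more 2.79 and 2.57. The class of 1 or 2 was higher in CpG-rich windows on all 19 autosomes, the class of 3 to 5 on 7 and the class of 10 to 14 on 14. Weighted to the local CpG numbers of the CpG-rich windows, taken singly up to 40, the windows with 500 to 700 had 3.21 reads outside, where the CpG-rich windows had 3.19, a ratio of 0.993. This near equality of the weighted means sums classes that differ in either direction, and from 2000 bp of a stretch on, with no weighting, CpG-rich windows had 1.05 times the reads, on all 19 autosomes. In the same way the ratio of reads inside over outside at like local CpG number was 1.74 in CpG-rich windows and 1.85 in the others. Only listed CpGs enter these means; the truncated negative binomial distribution, which allows for CpGs without reads, put them at 4.96 inside and 2.83 outside in CpG-rich windows and at 5.19 and 2.60 in the others.

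Above the limit, reads per listed CpG did not climb with the CpG number of the window. Below it, windows with 100 to 299 listed CpGs had 5.53 reads inside stretches and 2.66 outside. Those with 900 to 1199 had 5.36 and 3.19, so only reads outside were higher there. Inside stretches the mean was 5.18 in windows with 1200 to 1499 listed CpGs, 5.04 with 1500 to 1799 and 5.01 with 1800 or more, and outside it was 3.196, 3.164 and 3.123. Across the CpG-rich windows the number of listed CpGs had a Spearman correlation of -0.0623 with reads outside (1650 windows) and -0.0704 with reads inside (1539 windows), which are weak. Reads and level outside stretches had a correlation of 0.383 over the 1650 windows and 0.0497 over the 3966 windows with 500 to 700; both come from the same CpGs. Reads outside spread little between CpG-rich windows, with a mean of 3.18 ± 0.15 (SD over windows), while reads inside had 5.13 ± 0.78.

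The 3 longest stretches of CpG-rich windows were low in methylation and had more reads per listed CpG than the pooled mean. On chromosome 16 a stretch of 10123 bp (91219700 to 91229822) had a level of 3.19% and 6.09 ± 3.35 reads per listed CpG (SD over 438 CpGs), in a window that was 31.9% methylated with 3.28 reads outside. On chromosome 9 a stretch of 9698 bp (62990123 to 62999820) had 3.46% and 5.92 ± 3.55 reads (552 CpGs), with 2.77 reads outside in its window. On chromosome 14 a stretch of 8683 bp (67849012 to 67857694) had 4.92% and 5.40 ± 3.03 reads (331 CpGs), with 3.21 outside. All 3 means were above the pooled mean inside stretches of 5.13. A stretch is called from CpGs of low level with 5 or more reads. Low levels and high reads in the longest ones therefore come partly with the choice.

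CpG-rich windows were unevenly spread over the autosomes. They made up 14.05% of the windows of chromosome 11 (167 windows, Wilson interval 12.2 to 16.1), 13.0% of chromosome 19 (76 windows, 10.5 to 16.0) and 12.2% of chromosome 4 (184 windows, 10.6 to 13.9). The smallest shares were 2.19% on chromosome 1 (42 windows, 1.62 to 2.94), 2.24% on chromosome 3 (35 windows, 1.61 to 3.09) and 2.32% on chromosome 6 (34 windows, 1.67 to 3.23). These intervals take windows as independent, which neighbouring windows are not, so they are too narrow. The share over autosomes was 7.18% ± 4.14 for CpG-rich windows and 16.6% ± 2.29 for those with 500 to 700 (SD, 19 autosomes). Chromosomes 4, 11, 5, 2 and 8 together held 784 CpG-rich windows, 47.5% of all, on 30.1% of the windows. Autosomes with few CpG-rich windows could still hold extreme ones, as the window with the most CpGs on chromosome 6 shows.

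The share of CpG-rich windows also differed along the chromosomes. Mouse autosomes have their centromere at one end, where the numbering starts. With each autosome cut into 5 equal parts from that end, CpG-rich windows made up 3.88%, 3.87%, 4.07%, 6.14% and 16.5% of the windows, and 790 of the 1650 (47.9%) lay in the most distal part. That part had the highest share on 13 of 19 autosomes, up to 47.9% on chromosome 4, and a higher share than the part nearest the centromere on 17; chromosomes 7 and 19 were the exceptions. Windows with 500 to 700 CpGs made up between 14.8% and 18.8% of each part. The level of CpG-rich windows was 65.1% in the most distal part, with 16.9% of the CpGs in stretches, and between 57.6% and 59.8% in the other parts, with 21.2% to 24.3% in stretches.

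**Figure D5:**
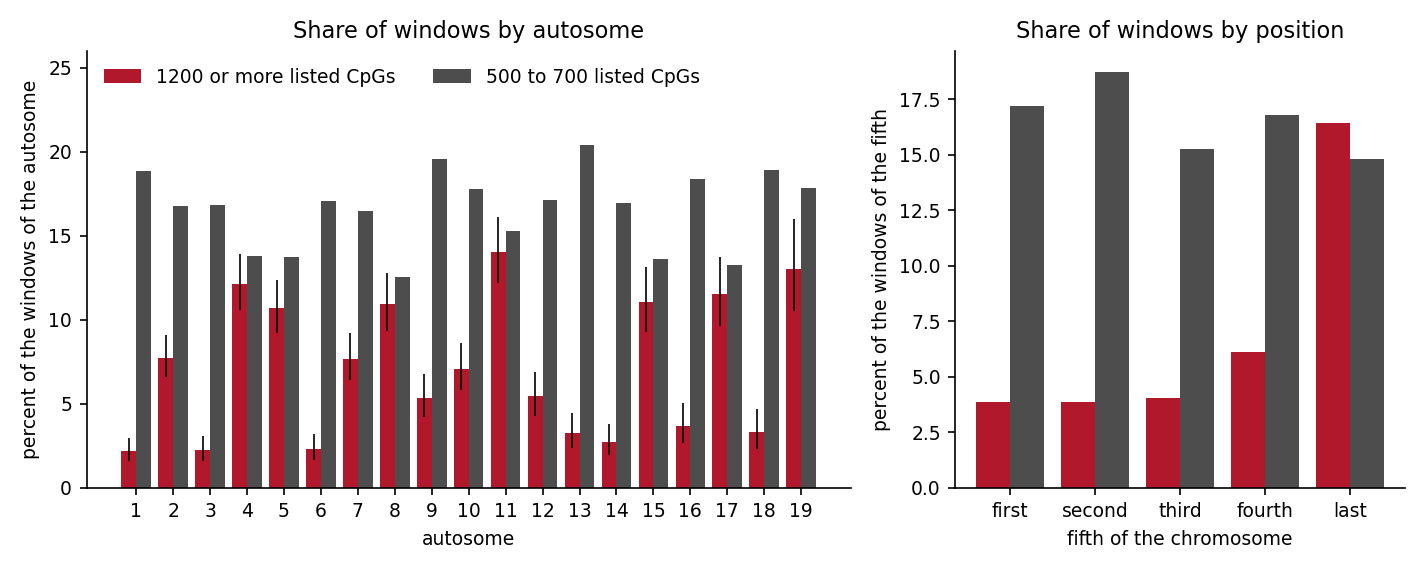
Left, percentage of the windows of each autosome (y axis) that are CpG-rich (red, with 95% Wilson intervals that take windows as independent) or hold 500 to 700 listed CpGs (grey). Right, the same percentages in 5 equal parts of the autosomes, from the centromere end (first) to the distal end (last), where the CpG-rich share is 16.5%.

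CpG-rich windows also lay next to each other. Of the 1650, 1138 (69.0%) had a CpG-rich neighbour, against 10.8% of all autosomal windows, and they formed 829 runs, of which 512 were single windows. The longest run was 22 windows on chromosome 5 (114000001 to 116200000). Its windows had 1210 to 2014 listed CpGs and levels between 39.1% and 83.6%, with 5.22 reads per listed CpG inside stretches and 3.22 outside. Windows that border a CpG-rich one without reaching the limit (1441 windows, median 1004 listed CpGs) had a level of 72.4%, between those of the 2 sets, while the 108 windows with 500 to 700 CpGs beside a CpG-rich window had 79.1%, close to the 78.8% of the others of their set.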

How the data were processed

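The deposited values are, per the file headers, the total count and the methylated count at each CpG, and they are raw. Per the submitters' processing notes, Bowtie and mm9 were used; for alignment settings, duplicates and bisulfite conversion the answer is not given in the sources used here. Every listed CpG had at least 1 read. The table holds 15544856 CpGs and 60995624 CpG reads, with a median of 3 per listed CpG; whether positions start at 0 or 1 is not stated. CpGs above 19 reads were left out of levels and means but count toward the windows. Levels are methylated over all reads, pooled; intervals are 95% Wilson intervals of counting error, and PCR reads that carry no molecular identifiers need not be independent molecules. The design has 1 library, so no test was run. Windows were named by rank (number of CpGs, level, share in stretches, the limit), stretches by length and autosomes by share. The members, settings and lists were chosen with earlier results of these data known. Genes and sequences on mm9 were not used here. Stretch calling and the truncated negative binomial fit were tested on simulated reads of chromosome 19 with large stretches only. The weighting by class was tested on simulated counts. Smaller stretches and the distance bands were not simulated. Python 3.11.15, numpy 2.4.6, pandas 2.3.3, scipy 1.17.1 and matplotlib 3.10.9 were used.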

Additional observations from a re-analysis of the deposited data

Results flagged for a closer look

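CpGs above 19 reads were left out of the pooled levels and means of CpG-rich windows, and most of them lay inside stretches. There were 2148 of them among 2285042 listed CpGs (0.0940%), with 0.825% of the reads, and their pooled level was 16.4%. Inside stretches lay 2011 of them (93.6%) with a level of 7.67%, near the 6.39% of CpGs with up to 19 reads there. Outside lay 137 with a level of 59.9%, against 83.9%. In windows with 500 to 700 CpGs such deep CpGs made up 0.0579% of the listed ones, held 7.96% of the reads and had a level of 44.4%; a single window of that set, on chromosome 9 (35100001 to 35200000), had 7.10% of all its reads. No such CpG was found in 1257 of the 1650 CpG-rich windows (76.2%), against 92.4% of the windows with 500 to 700 CpGs and 90.3% of all windows. In 1 CpG-rich window, on chromosome 2 (27300001 to 27400000), 85 of them held 66.5% of the reads of the window.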

How the results depend on the processing

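No paired analysis was possible because the data come from 1 library. Of 86 alternative values, 29 lay inside the interval set for the reported value, 55 moved beyond it and 2 reversed. The interval was 1 SD over autosomes for reads and ratios, and 1.5 times for the number of windows. For levels, shares and the plain difference it was the counting interval. The standardised difference was given the width of the plain one (-1.32 to -1.24), far narrower than its SD over autosomes of 1.56. Its moves beyond that interval therefore say little. Of the 86, 9 were added after seeing the data (stretches from CpGs with 1 or more reads, single local CpG numbers, and leaving out the most-read window). Depth limits single CpGs, since 2.77% of those in CpG-rich windows have 10 or more reads. The number of windows was 3906 with a limit of 1000 CpGs and 325 with a limit of 1500. With these limits the level was 65.5% and 54.8%, the difference from windows with 500 to 700 CpGs -13.3 and -23.9 points, the standardised difference -1.06 and -1.99, and the share of CpGs inside stretches 16.6% and 26.1%. With windows counted over CpGs of 2 or more reads (limits of 960, and 368 to 535) the level was 61.1%, the differences -17.9 and -1.63, and the share 20.5%. With windows shifted by 50 kb the level was 61.5%, the difference -17.2 and the share 20.03%. With no upper limit on reads the level was 61.4%, the differences -14.7 and 1.20, the share 20.003%, and the ratio of reads inside over outside 1.66 in windows with 500 to 700 CpGs. One of those windows, on chromosome 9 (35100001 to 35200000), held 7.10% of the reads of its set; without it the differences were -17.0 (-16.97) and -1.14 and the ratio 1.80. With CpGs of up to 10 reads the level was 64.2%, the differences -15.8 and -1.40, the share 18.96%, the reads inside and outside 4.59 and 3.14, and the ratios 1.46 in CpG-rich windows and 1.57 in the others. With CpGs of 5 to 19 reads the level was 53.3% and the differences -19.8 and -0.56. The standardised difference was -0.69 with single local CpG numbers and reversed to 2.46 with 250 bp on each side; the cause was not tested. Stretches called from CpGs with 1, 3 and 10 or more reads gave shares of 25.3%, 24.0% and 5.23%, reads inside of 4.57, 4.72 and 7.38, and ratios of 1.41, 1.47 and 2.19 in CpG-rich windows and 1.5025, 1.60 and 2.42 in the others; reads outside were 3.24 and 3.37 with 1 and 10. A running level under 30% gave a share of 17.7%. The truncated negative binomial distribution gave 4.96 reads inside and 2.83 outside and ratios of 1.75 and 2.0001.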

Other observations

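Outside the autosomes, 1 of the 1611 windows of the X chromosome with a listed CpG reached 1200 listed CpGs, with 1438. It was not used above.

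Among single CpGs with 10 to 19 reads in CpG-rich windows (61162 CpGs), 63.8% had a level under 20%, 15.4% lay between 20% and 80%, and 20.9% were over 80%. In windows with 500 to 700 CpGs (40012 CpGs) the shares were 35.6%, 20.8% and 43.5%. Of the 61162 CpGs in CpG-rich windows 43003 lay inside stretches, and of the 40012 in the other set 16073 did. Within each part the sets differed less. Inside stretches 90.3% and 87.8% of these CpGs were under 20%, and outside 70.2% and 72.8% were over 80%.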
